A study of Zea mays with 58 samples.

Results

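Roots of maize seedlings taken 20 min after transfer to nitrogen were compared with roots taken 20 min after transfer to potassium chloride. The members are the 6 libraries labelled for 20 min, 3 from nitrogen roots (N) and 3 from KCl roots (noN), of 58 libraries in the series. All plants were of the inbred line B73, were 10 days old and had been starved of nitrogen before the transfer. The medium of N roots contained KNO3 and NH4NO3 at 20 mM each, and that of noN roots contained KCl at 20 mM. Both media held potassium from these salts at the same concentration. They differed in nitrate and ammonium, given together, in chloride, and in the total concentration of these salts, which was greater in N. The roots of 3 seedlings were pooled into each replicate, after the plants' endosperm had been removed. The other libraries used here as reference points are those taken at 5, 10, 15, 30, 45, 60, 90 and 120 min in both media, and 3 libraries of time 0, which are labelled noN.

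Nitrate and ammonium are the main inorganic nitrogen sources of a root. Nitrate is a nutrient and also a signal: in starved plants that meet it again, transcripts of transporters, of the enzymes that reduce nitrate and assimilate ammonium, and of transcription factors change within minutes, which is known as the primary nitrate response. The genes of that response could not be picked out here, because the count table gives gene model IDs of the AGPv4 annotation and none of its 44146 gene model IDs is paired with a name in the reference table used. The 9 gene lists chosen for nitrogen uptake, assimilation, signalling and related processes therefore have 0 members, as has the list of shoot markers matched by name, and the results are described by groups of genes, by structure and class of feature, and by 4 gene IDs.

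Expression was measured by 3' mRNA sequencing, in which reads come from the end of a transcript that carries the poly(A) tail, and a molecular tag marks each captured molecule. The N libraries held 2465729 to 2781216 counts and the noN libraries 2237312 to 2949327. The 2 media differed in makeup. The 50 most abundant features of each library took 10.15 to 10.99% of the counts in N and 7.38 to 8.31% in noN, and the mean log2 exon length of the genes counted, weighted by counts, was 10.980 to 10.989 in N and 11.050 to 11.073 in noN, with no overlap in either. No label gives a batch, a preparation date or a measure of RNA quality for single libraries, so the medium cannot be told apart from anything else that separates these 6 libraries in the same way. Features of the plastid chromosome held 1 to 4 counts in a library in N and 0 to 7 in noN, and none of the 74 was tested. Whether reads from poly(A) tails capture plastid transcripts was not tested, so these counts give no check on green tissue. Because the samples are bulk roots, a change in the share of a cell type cannot be told apart from a change of RNA per cell.

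1 library stood apart from its group. In replicate 1 of noN, 329 genes with at least 5 CPM (counts scaled to library size) were at least 4 times as high as in both other noN libraries; in each of the other 5 libraries the number was 4 to 24. Together these genes had 2201, 2571 and 2320 CPM in the 3 N libraries, against 19155, 1461 and 1715 CPM in noN replicates 1, 2 and 3. The noN group thus lies on both sides of N. The same genes were also high in many noN libraries of other times: 16 of 28 exceeded the highest of the 24 N libraries of other times (5532 CPM). At 15 min their sum was 22904, 13941 and 27501 CPM in the noN libraries, and 177 of the 329 were called lower in N than in noN there and 2 higher. At 30 min the counts were 25 lower and 6 higher. Results that rest on noN replicate 1 at 20 min are given below with and without it.

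**Figure D1:**
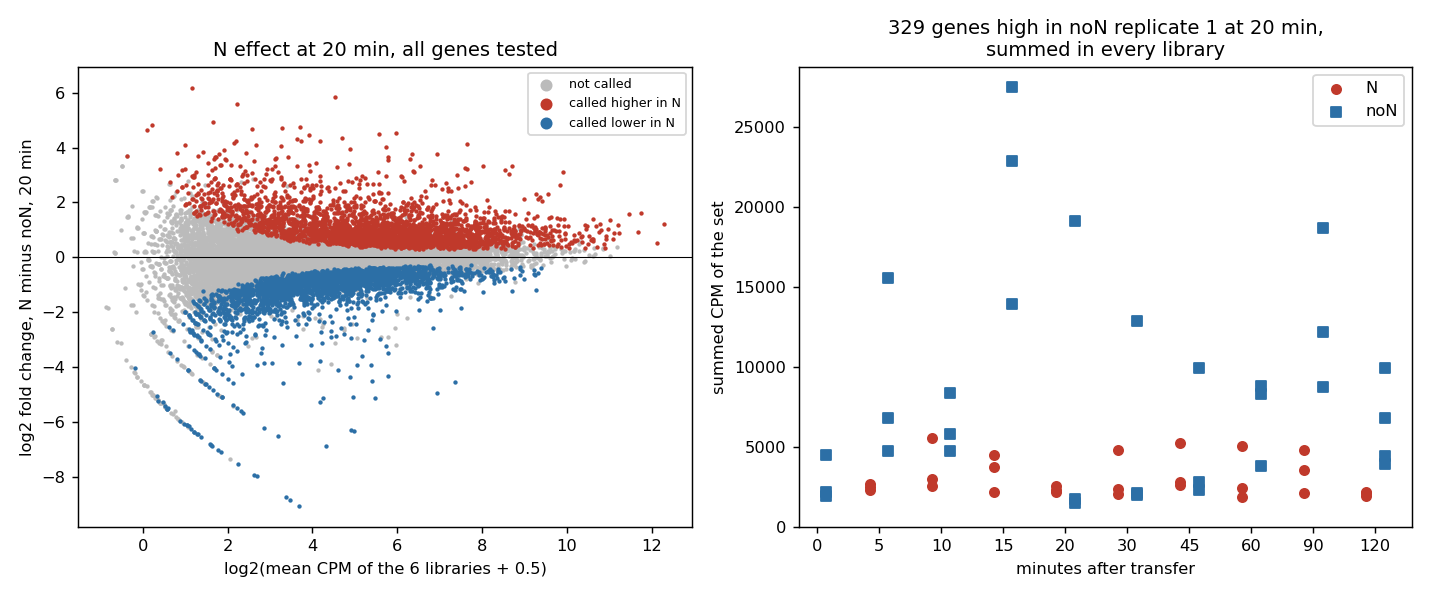
Left, each point is 1 of 18872 genes tested; the x axis is log2 of the mean CPM of the 6 libraries plus 0.5 and the y axis the log2 fold change N minus noN at 20 min, with 3094 genes called higher and 2613 called lower in colour and the others in grey. Right, summed CPM of the 329 genes that were high in noN replicate 1 at 20 min, 1 point a library, by minutes after transfer; the N libraries lie between 1851 and 5532 CPM and noN replicate 1 of 20 min and 16 noN libraries of other times lie above them.

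At 20 min the roots in the 2 media differed in many of the genes tested. Of 18872 genes, 5707 were called (30.2%; edgeR's quasi-likelihood test, adjusted p at most 0.05), 3094 of them higher in N (16.4%) and 2613 lower (13.8%). A change of at least 1 on the log2 scale was found for 1338 higher genes (7.09%) and 1185 lower genes (6.28%), and of at least 2 for 312 higher and 274 lower genes. The median log2 fold change over all genes was -0.02. All 3 N libraries lay above all 3 noN libraries for 2861 of the 3094 higher genes, and all 3 lay below for 2293 of the 2613 lower genes. Over all genes tested the 2 groups were separated for 40.9%, with N above for 21.4% and below for 19.5%. Without noN replicate 1 the calls were 2311 higher and 1850 lower, and without N replicate 3, 2183 higher and 1470 lower.

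The higher genes were more abundant than the lower ones. Gene models among the 1338 had a median of 25.2 CPM (mean of all 58 libraries for each gene), the 1185 lower genes 8.89 CPM and all gene models tested 21.6 CPM. The 1338 genes higher by at least 1 held 14.26, 16.57 and 18.05% of all counts in the 3 N libraries, against 7.21, 8.04 and 7.06% in the 3 noN libraries. The 1185 genes lower by at least 1 held 1.23, 1.00 and 0.879% in N, against 4.22, 2.57 and 3.30% in noN. These shares describe the genes' selection and were not tested. Of the 50 most abundant features over the 6 libraries, 36 were called higher in N and 0 lower by edgeR's test (0 at an unadjusted p under 0.05 and 0 by DESeq2), 13 of them by at least 1, with a median log2 fold change of 0.65. In the fifth of genes with the highest mean CPM over all 58 libraries, 1292 were called higher and 360 lower, and in the fifth with the lowest mean, 267 higher and 421 lower. Over all 18872 genes tested, 3094 were called higher (16.4%) and 2613 lower (13.8%).

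The far end of the decrease depended on noN replicate 1. Of 109 genes lower by at least 3 on the log2 scale, 85 belong to the 329 genes that were high in that library, as do 118 of the 1185 lower by at least 1. When the library was left out of the fit, 9 genes were lower by at least 3, and 3 were lower by at least 4, against 68 with it. The number lower by at least 1 was then 823, of which 723 were among the 1185. Without N replicate 3 it was 733. At the other end, 23 genes were higher by at least 4 with the library and 34 without it, and the number higher by at least 1 was 1338 with it and 1127 without it, with 1003 genes in both.

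The 2 IDs with the largest increase, among genes with a mean of at least 5 CPM and no overlap between the groups, behaved differently over time. Zm00001d041571 lies on chromosome 3 (AGPv4, 127608422 to 127609744, plus strand) and has 1 exon of 1323 bases; it is a target in the authors' deposited network. It had 24.5, 40.5 and 69.1 CPM in the 3 N libraries, against 1.24, 0.407 and 0.408 CPM in the 3 noN libraries. The lowest N library was far above the highest noN library, although the N libraries themselves were spread widely. The log2 fold change was 5.84 with a standard error (SE) of 0.60 (edgeR, adjusted p = 7.593e-10). It was already 3.89 (SE 0.53) at 5 min and 6.76 (SE 0.73) at 30 min. At 60 min it was 0.26 (SE 0.38, adjusted p = 0.7974), with means of 28.4 ± 11.4 CPM in N and 23.8 ± 2.40 CPM in noN (SD, n = 3 each). The N libraries of 60 min, at 15.7 to 37.7 CPM, overlapped those of 20 min, while noN at 60 min lay above every earlier noN library, time 0 included (3.10 ± 0.893 CPM, SD, n = 3). Its 20 min effect exceeded the late mean of 60, 90 and 120 min by 5.44 (SE 0.66, edgeR, adjusted p = 2.908e-08). The 20 min effect that enters this difference is the one that chose the ID.

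Zm00001d033347 lies on chromosome 1 (259828724 to 259831189, plus strand) and has 2 exons with 1719 bases; it is a regulator in the network. It had 38.95, 11.24 and 23.02 CPM in N at 20 min, against 0.932, 0.407 and 1.23 CPM in noN. The groups did not overlap, which was a condition of the choice, and the log2 fold change was 4.75 (SE 0.60, edgeR, adjusted p = 1.4e-07). At 5 min the difference was -0.01 (SE 0.74) and at 10 min 1.67 (SE 0.66, adjusted p = 0.08895), neither past the threshold. It was 3.18 (SE 0.52) at 15 min and 5.60 (SE 0.50) at 30 min. The change of the effect between 5 and 20 min was 4.76 (SE 1.04, adjusted p = 0.02678). N roots went on to hold 78.01 ± 40.01 CPM at 30 min and 142.6 ± 1.13 CPM at 45 min (SD, n = 3 each), and the mean effect at 60 to 120 min was 4.70 (SE 0.25). The effects at 20 min and at 60 to 120 min differed by 0.05 (edgeR, adjusted p = 0.9387).

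Both IDs with the largest decrease were called through noN replicate 1. Zm00001d048593 (chromosome 4, 921608 to 923738, plus strand, 4 exons, 1758 bases) had 0 counts in each N library, against 73.3, 0.407 and 0.408 CPM in noN, which are 236, 1 and 1 counts. The noN mean was at least 57.1-fold higher than N, taking 3 counts over the N group as the floor, and the noN median of 0.408 CPM was under that floor of 0.432 CPM. Its adjusted p was 0.01567 with all libraries and 0.7205 without noN replicate 1 (edgeR). Zm00001d009425 (chromosome 8, 63827245 to 63828434, minus strand, 3 exons, 747 bases) had 0 counts in each N library, against 53.7, 2.85 and 3.27 CPM in noN, or 173, 7 and 8 counts. The noN mean was at least 46.1-fold higher than N by the same floor, and the adjusted p was 0.009055 with all libraries and 0.2232 without noN replicate 1. It was also lower in N at 15 min, with 1.21 ± 1.09 CPM in N and 28.7 ± 10.5 CPM in noN (SD, n = 3 each; adjusted p = 0.0172). The fitted log2 fold changes of these 2 IDs, -9.07 and -8.75, depend on the treatment of zero counts and bound nothing.

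**Figure D2:**
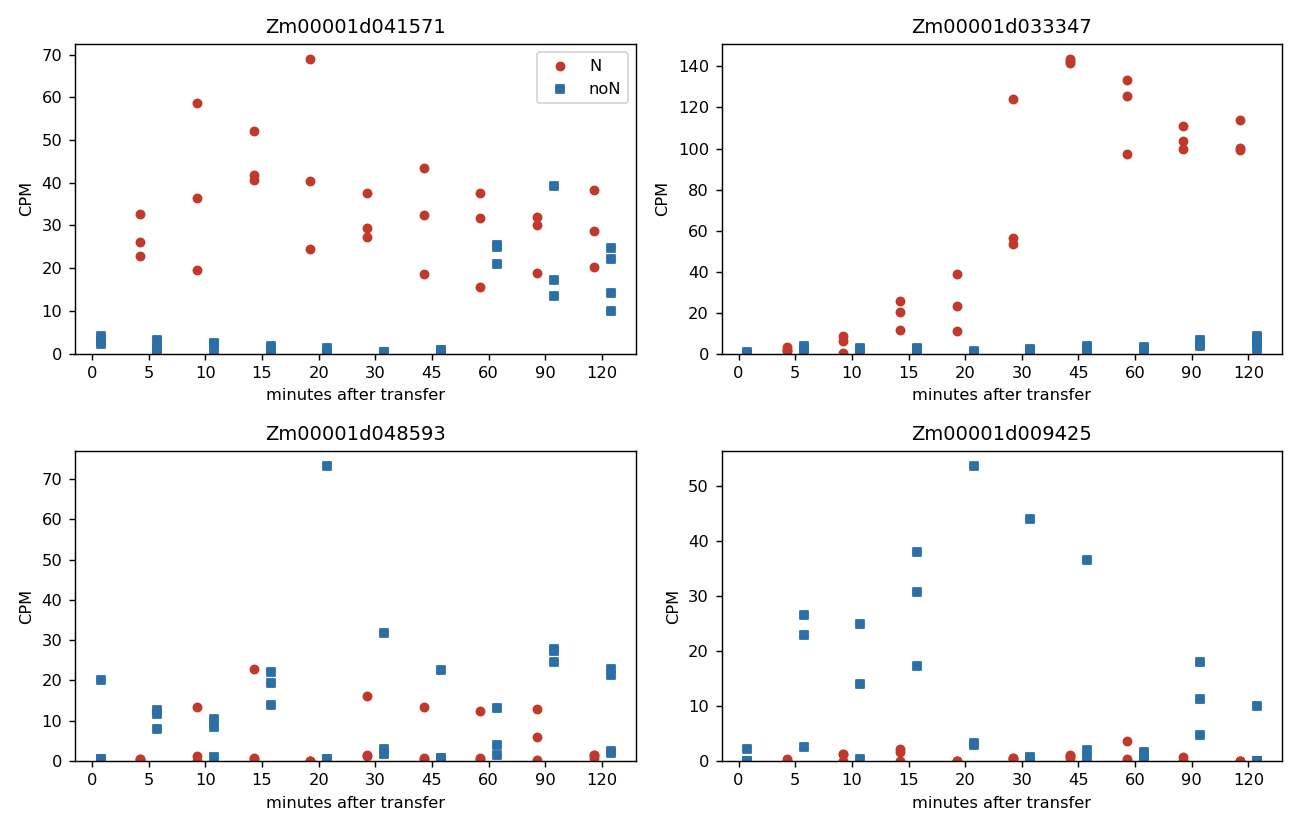
CPM of the 4 gene IDs in every library (y axis) by minutes after transfer (x axis); circles are N libraries and squares noN libraries, and time 0 exists in noN only. Zm00001d041571 reaches 24.5 to 69.1 CPM in N at 20 min and the noN libraries join it at 60 min, Zm00001d033347 stands at 11.24 to 38.95 CPM in N at 20 min and above that range from 30 min, and the lower panels show noN replicate 1 at 73.3 and 53.7 CPM above both other noN libraries of 20 min.

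The 20 min difference was then set beside those at the other times, which come from other libraries. Of the 1338 genes higher by at least 1 at 20 min, 268 were also called higher at 5 min (20.0%, against 2.63% of all genes tested), 465 at 10 min (34.8%, against 7.56%) and 842 at 15 min (62.9%, against 14.7%). After 20 min, 779 were called higher at 30 min (58.2%, against 12.2%) and 854 at 45 min (63.8%, against 13.4%). At 60 min the number was 106 (7.92%, against 2.50%), with 28 called lower (2.09%, against 1.59% of all genes tested). The medians of the log2 fold change of these genes were 0.64, 0.74, 1.08, 1.07, 1.18 and 0.03 at 5, 10, 15, 30, 45 and 60 min. At 20 min, where they were selected, the median was 1.47.

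The 1185 lower genes followed the same times with fewer calls. At 5 min 44 were called lower (3.71%, against 0.970% of all genes tested), at 10 min 141 (11.9%, against 4.18%), at 15 min 535 (45.1%, against 12.5%), at 30 min 422 (35.6%, against 7.93%) and at 45 min 446 (37.6%, against 10.2%). At 10, 15, 30 and 45 min 0 were called higher by edgeR, with 4, 2, 0 and 1 higher at an unadjusted p under 0.05 and, at 15 and 30 min, 0 by DESeq2; 1 was called higher at 5 min. At 60 min 21 were called lower (1.77%, close to the 1.59% of all genes tested) and 8 higher, with a median of -0.11. The median fell short of the -1.42 of the 20 min selection at each time: it was -0.47, -0.57, -0.91, -0.90 and -0.88 at 5, 10, 15, 30 and 45 min. Without noN replicate 1, 335 of the 823 genes then lower by at least 1 were called lower at 15 min and 376 at 30 min, and of the 1127 then higher by at least 1, 713 were called higher at 15 min and 725 at 30 min.

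**Figure D3:**
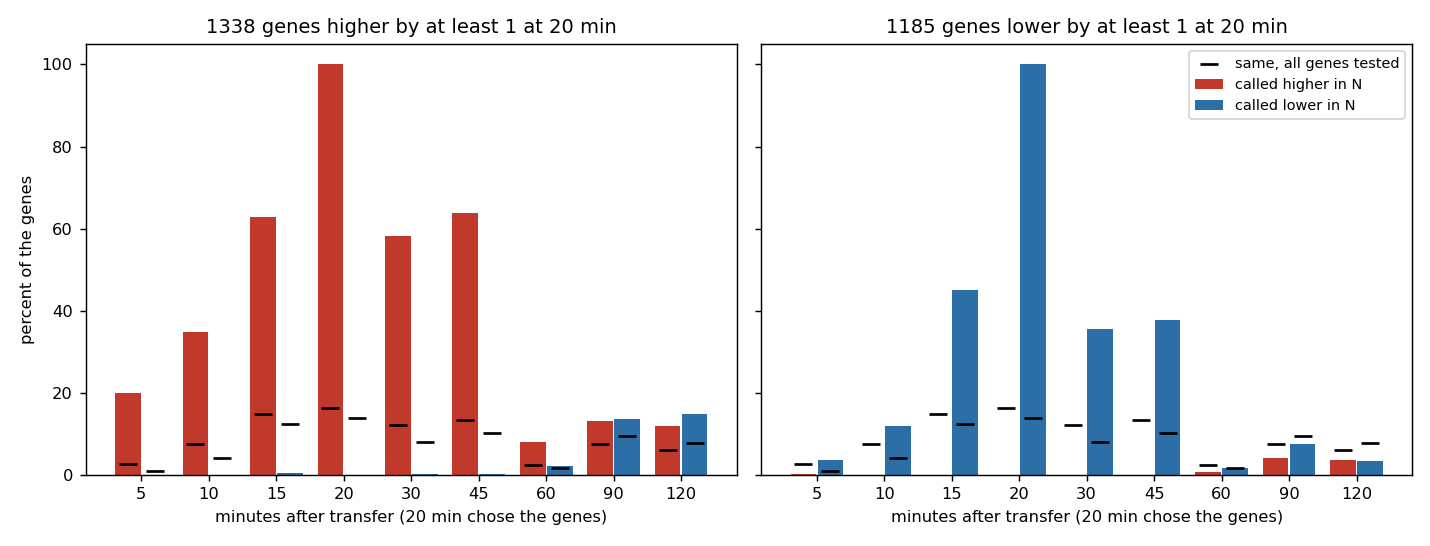
Bars give the percent (y axis) of the 1338 genes higher by at least 1 at 20 min (left) and of the 1185 lower by at least 1 (right) that were called higher or lower in N at each time (x axis, minutes); short lines give the same percent over all 18872 genes. At 20 min the bars stand at 100 because that time chose the genes; 62.9% and 45.1% were called the same way at 15 min and few at 60 min.

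Many of the genes had been called the same way before 20 min. Of the 1338, 914 had been called higher at 5, 10 or 15 min (68.3%, against 17.7% of all genes tested). The other 424 were first called at 20 min (31.7%, against 6.09%). Of the 1185 lower genes, 585 had been called lower by 15 min (49.4%, against 14.9% of all genes tested). The other 600 were first called at 20 min (50.6%, against 7.03%). Every gene of both groups was called at 20 min by choice, so the first calls then are the remainder. The lower genes had fewer counts, as given above, and a first call at a time does not show that the gene changed then. The effect itself was found to differ between 20 and 15 min for 28 genes (0.148%), 23 with the higher value at 20 min (0.122%) and 5 with the lower (0.0265%), and 2324 genes had an unadjusted p under 0.05. A gene without a call here is not shown to have had the same effect at both times. Each of the 6 libraries moved that count: it was 87, 9 and 6 without N replicates 1, 2 and 3, and 146, 6 and 3 without noN replicates 1, 2 and 3. Between 20 and 30 min the effect differed for 3 genes (0.0159%), all with the lower value at 20 min, and for 1282 at an unadjusted p under 0.05, 636 of them with the higher value at 20 min (DESeq2 called 0 of that direction). Leaving out 1 library gave 1 to 4 genes; the count was 1 without N replicate 2 or 3 and without noN replicate 1 or 2. Between 20 and 5 min it differed for 45 genes (0.238%), 38 with the higher value at 20 min (0.201%) and 7 with the lower (0.0371%).

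Across the 18872 genes, as a description, the log2 fold change at 20 min correlated with that at 15 min (Pearson's r 0.71, Spearman's rho 0.67), at 30 min (0.74 and 0.73) and at 45 min (0.73 and 0.73). With 60 min the values were 0.25 and 0.04, and with 120 min 0.18 and -0.09. Genes are not independent replicates, and the points share the length and abundance of the gene.

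Time 0 gave a view of each medium on its own. N roots at 20 min differed from time 0 in 2365 genes (12.5%), 1470 higher (7.79%) and 895 lower (4.74%). noN roots at 20 min differed from time 0 in 650 genes (3.44%), 177 higher (0.938%) and 473 lower (2.51%). Both use the same 3 libraries of time 0. The noN count was 255 without noN replicate 1 and 168 without noN replicate 3, and the N count was 1361 without N replicate 3. The 1338 higher genes stood at a median log2 change of 0.89 from time 0 in N, with 637 called higher and 2 lower, and at -0.59 in noN, with 4 called higher and 214 lower. The 1185 lower genes stood at -0.81 in N, with 247 called lower, and at 0.68 in noN, with 62 called higher. Calls of the lower genes in the opposite direction were 0 in each medium by edgeR, at an unadjusted p under 0.05 and by DESeq2. In these genes the median distances from time 0 at 20 min thus had opposite sign in the 2 media. These medians and the directions of the calls follow in part from the selection of the genes on the 20 min libraries. At 15 and 30 min, in libraries that did not choose the genes, the medians of the higher genes were 0.61 and 0.48 in N and -0.36 and -0.46 in noN, and those of the lower genes -0.29 and -0.28 in N and 0.50 and 0.45 in noN, from log2 CPM values in which the prior count was 3. Between 5 and 20 min within a medium, 393 genes were called in N (2.08%), 338 higher (1.79%) and 55 lower (0.291%). In noN 96 were called (0.509%), 47 higher (0.249%) and 49 lower (0.260%).

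The 20 min pattern was not the one found later. The effect at 20 min differed from the mean effect at 60, 90 and 120 min for 6636 genes (35.2%), 3591 with the higher value at 20 min (19%) and 3045 with the lower (16.1%). Leaving out any of the 6 libraries kept the count between 5182 and 6231. Of the 1338 genes higher by at least 1 at 20 min, 253 were called higher in the mean late effect (18.9%), 316 were called lower (23.6%) and 769 neither. Over all genes tested, 14.9% were called higher late and 16.9% lower. Of the 1185 lower genes, 113 were called higher late (9.54%), 180 lower (15.2%) and 892 neither. Both of these shares were under those of all genes tested. Without noN replicate 1, the 1127 genes then higher by at least 1 held 203 that were late higher and 269 late lower, and the 823 lower genes 111 late higher and 69 late lower. Among the lower genes, late lower calls thus outnumbered late higher ones with the library (180 against 113) but not without it (69 against 111).

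The groups split by the late call were chosen on the libraries of 20 min and of 60 to 120 min, so the sign or nearness to 0 of their effects at those times is fixed by the choice, and the values there are a description; the libraries of 5 to 15, 30 and 45 min entered neither comparison. The 253 genes that were higher at 20 min and late were higher by 1.28, 1.55 and 1.89 (median log2 fold change) at 15, 30 and 45 min, and by 0.98, 1.11 and 1.06 at 60, 90 and 120 min. In N their median change from time 0 was 0.82 at 20 min and 0.98 at 120 min. In noN it was -0.64 at 20 min and -0.73 at 45 min, and then 0.10 and 0.03 at 60 and 120 min. The late gap between the media is part of the choice of these genes. Zm00001d033347, described above, is among these genes.

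The 316 genes that were higher at 20 min and lower late had, by that choice, effects of opposite sign at the 2 stages. Their median log2 fold change was 0.96, 1.03 and 0.92 at 15, 30 and 45 min, and -0.41, -0.76 and -0.85 at 60, 90 and 120 min. In N the median change from time 0 was 0.92, 0.52 and 0.01 at 20, 45 and 120 min. In noN it was -0.33 and -0.36 at 20 and 45 min, but 0.64 and 0.72 at 60 and 120 min. Among neighbouring times the noN medians differed most between 45 and 60 min. The noN libraries of 0 to 45 min also had a greater mean log2 exon length (11.010 to 11.114) than those of 60 to 120 min (10.967 to 10.999), and the part of this in the medians was not tested.

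The 113 genes that were lower at 20 min and higher late had median log2 fold changes of -0.75, -0.86 and -0.72 at 15, 30 and 45 min, and 0.49, 0.74 and 0.64 at 60, 90 and 120 min. In N the median change from time 0 was -0.79 at 20 min and 0.31 at 120 min, and in noN 0.40 at 20 min and -0.42 at 120 min. The 769 higher and 892 lower genes with no late call had medians of 1.15 and -0.88 at 45 min.

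**Figure D4:**
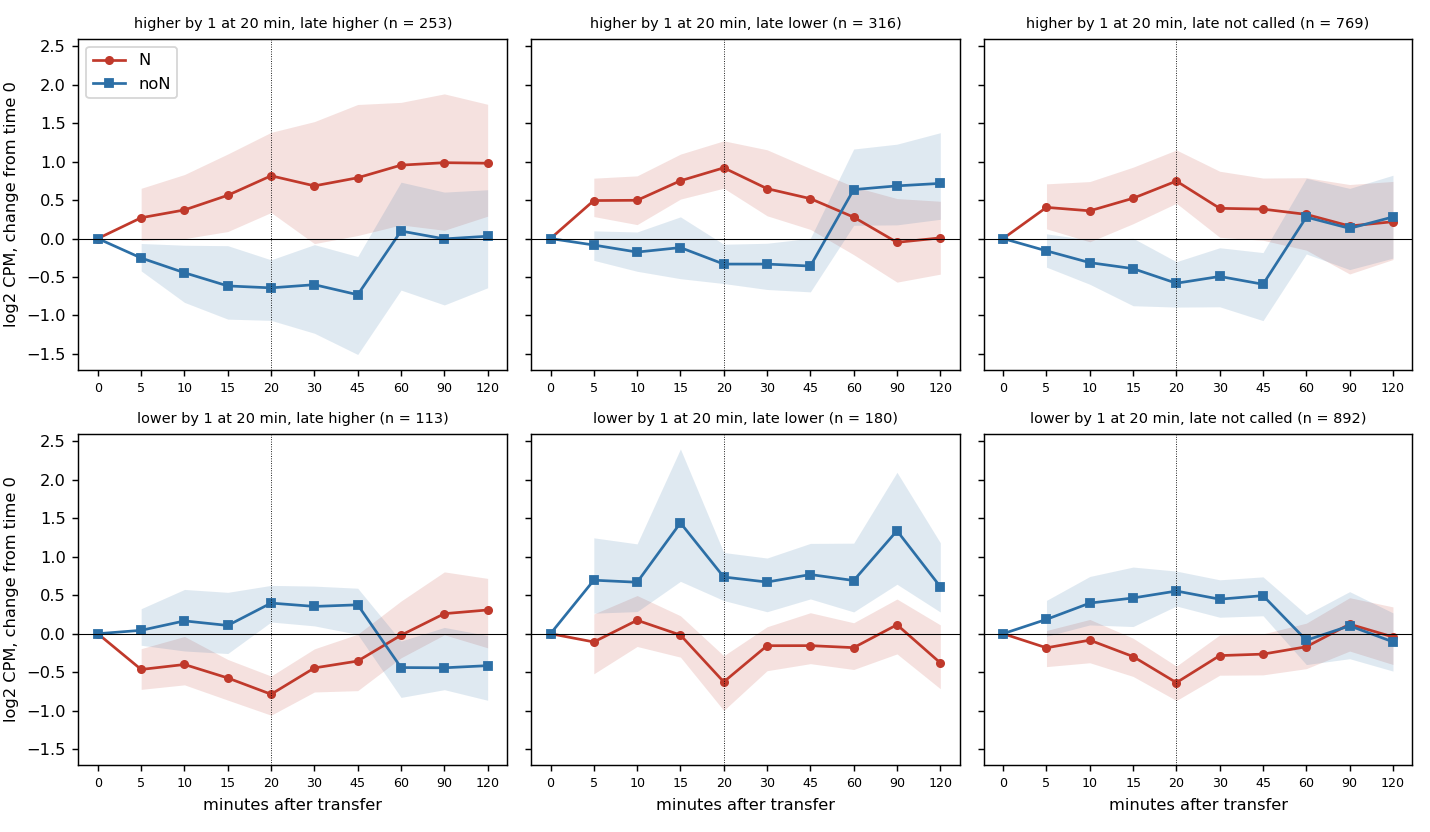
Median log2 CPM change from time 0 (y axis; the shaded band spans the lower to the upper quartile) by minutes after transfer (x axis, evenly spaced) in N (circles) and noN (squares), for genes higher (top) or lower (bottom) by at least 1 at 20 min, split by their call in the late mean. The dotted line marks 20 min; that time and the times of 60 to 120 min chose the genes of each panel, so the gaps there are a description. In the upper middle panel the medians at 45 min, which chose no gene, are 0.52 in N and -0.36 in noN.

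The authors' deposited network names 196 genes as regulators, without saying how they were chosen, and all of them were tested. At 20 min 107 were called higher in N and 15 lower, 54.6% and 7.65%, against 16.4% and 13.8% of all genes tested, with a median log2 fold change of 0.70. Their summed level was 14939, 16422 and 16558 CPM in the 3 N libraries, against 8184, 9554 and 8747 CPM in the 3 noN libraries. Every N library exceeded every noN library, by 1.81-fold in the means. An exact two-sided permutation test gave p = 0.1, which is the smallest value that 3 against 3 allows. Earlier, 26 regulators were called higher and 2 lower at 5 min, then 66 higher and 7 lower at 10 min, with 109 higher and 15 lower by 15 min. Later, 94 were higher and 14 lower at 30 min, with 85 higher and 10 lower at 45 min, before the counts reached 33 higher and 18 lower at 60 min. At 90 and 120 min more were lower than higher, with 90 lower and 34 higher, and 76 lower and 35 higher. Over all genes tested, 2.63, 7.56, 14.7, 12.2, 13.4 and 2.50% were called higher at 5, 10, 15, 30, 45 and 60 min. The shares called lower at those times were 0.970, 4.18, 12.5, 7.93, 10.2 and 1.59%. At 90 min 9.48% of all genes tested were called lower and 7.59% higher, and at 120 min 7.81% and 6.06%. In the mean late effect 114 of the 196 were lower (58.2%, against 16.9% of all genes tested) and 53 higher (27.0%, against 14.9%). The 107 that were higher at 20 min held 65 that were lower late (60.7%) and 21 higher, and the 74 not called at 20 min held 49 lower (66.2%) and 22 higher, so no late reversal is particular to the 107. The effect at 20 min was above the late effect for 137 of the 196 and below it for 31. Of the 15 that were lower at 20 min, 10 were higher late and 0 lower (edgeR; 0 also at an unadjusted p under 0.05 and 0 by DESeq2).

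The network's 2098 targets that are not regulators had 843 calls higher and 533 lower (40.2% and 25.4%), with a median of 0.28. The 16578 genes outside the network had 2144 higher and 2065 lower (12.9% and 12.5%), with a median of -0.04. The network comes from the same study, and no source used here says whether its genes were chosen on these libraries, so its counts are no independent evidence of a direction.

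Features with an ENSRNA identifier, which the files give no name or gene model ID and which are short (median exon length 160 bases), had more calls higher than lower at 20 min under every setting run. Of 120 tested, 65 were higher in N (54.2%, against 16.4% of all genes tested) and 0 lower (against 13.8%; edgeR, 0 lower also at an unadjusted p under 0.05 and 0 by DESeq2), with a median log2 fold change of 1.31. Their summed level was 2627, 2385 and 2558 CPM in N, against 853, 1299 and 1239 CPM in noN, 2.23-fold in the means with no overlap (exact two-sided permutation p = 0.1, the smallest possible). They made up 0.229 to 0.256% of the counts in N libraries and 0.103 to 0.145% in noN libraries. At 15 min 73 were higher (60.8%, against 14.7% of all genes) and 1 lower. At 30 min 16 were higher (13.3%, close to the 12.2% of all genes) and 0 lower (2 lower at an unadjusted p under 0.05 in edgeR and 0 by DESeq2). In the late mean 4 were higher and 9 lower (3.33% and 7.50%, both under the 14.9% and 16.9% of all genes). Against time 0, 51 were higher in N at 20 min (42.5%, against 7.79% of all genes), and in noN 1 was lower. The calls in the opposite direction were 0 by edgeR and by DESeq2, with 1 lower in N and 2 higher in noN at an unadjusted p under 0.05. The count was 35 higher without noN replicate 1. With a trend of the fold change with exon length removed it was 28 higher and 8 lower, with a median of 0.63, and with the 6 libraries alone and a replicate block 40 higher and 1 lower.

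The share called higher fell, and the share called lower grew, with the number of exons of the gene model. Of 1597 single-exon gene models, 410 were called higher in N and 59 lower (25.7% and 3.69%), with a median log2 fold change of 0.58. With 2 exons the counts were 599 higher and 252 lower of 2669, with 3 to 5 exons 1160 and 810 of 6571, and with 6 to 10 exons 635 and 847 of 5136. With 11 or more exons 222 were higher and 645 lower of 2769 (8.02% and 23.3%), with a median of -0.22. The gene models among the 1338 higher genes (1275) had a median of 2 exons, 1409 exon bases and 304 intron bases, and 27.8% had a single exon. The 1185 lower ones had a median of 5 exons, 2264 exon bases and 1379 intron bases, with 3.54% of a single exon. Over the 18742 gene models tested the medians were 5 exons, 2076 exon bases and 1384 intron bases, and 8.52% had a single exon.

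Single-exon gene models summed to 39728, 47577 and 56477 CPM in N, against 27464, 32554 and 28340 CPM in noN. The groups did not overlap, and N was 1.63-fold higher in the means (exact two-sided permutation p = 0.1, the smallest possible). At 15 min 322 were higher and 69 lower (20.2% and 4.32%, against 14.7% and 12.5% of all genes tested). At 30 min 231 were higher and 37 lower (14.5% and 2.32%, against 12.2% and 7.93%). In the late mean 484 were higher and 162 lower (30.3% and 10.1%, against 14.9% and 16.9%). With the length trend removed, 334 were higher and 86 lower at 20 min, with a median of 0.40. Without N replicate 3 the number higher was 235. For 11 or more exons the removal gave 343 higher and 499 lower at 20 min, with a median of -0.13, against 222, 645 and -0.22 without it. These gene models had 202 higher and 519 lower at 15 min (7.30% and 18.7%) and 166 and 415 at 30 min (5.99% and 15.0%). Their late counts were 332 and 386 (12.0% and 13.9%), with a median of 0.00. The mean exon length of the counted genes differed between the media at 20 min in the same sense, as given above, and its part in the exon pattern was not tested beyond the removal of the trend.

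**Figure D5:**
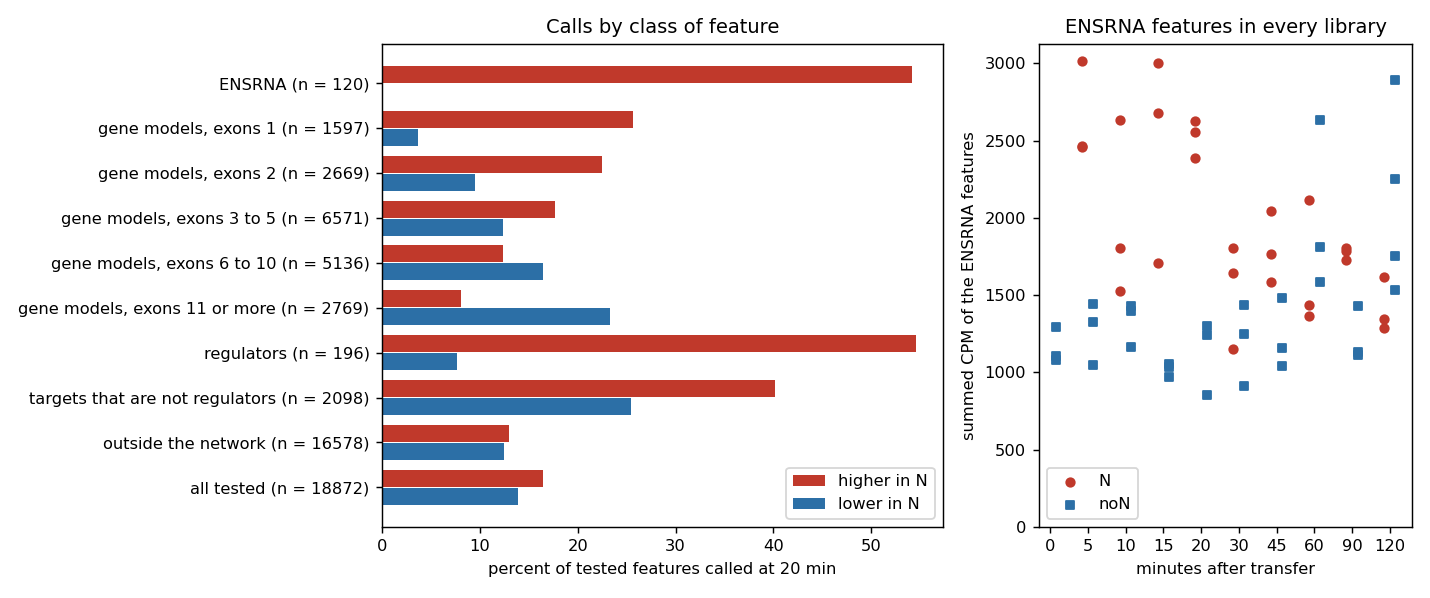
Left, percent of tested features (x axis) called higher or lower in N at 20 min by class, with the number tested; 54.2% of ENSRNA features and 54.6% of regulators were higher, and the share of higher calls falls with exon count. Right, summed CPM of the 120 ENSRNA features (y axis) in every library by minutes after transfer (x axis); the 3 N libraries of 20 min lie at 2385 to 2627 CPM and the 3 noN libraries at 853 to 1299.

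Calls were spread similarly over the genome. Over the 10 nuclear chromosomes, 14.8 to 18.4% of the genes were called higher and 12.1 to 15.1% lower. Of 10 mitochondrial features tested, 3 were called higher at 20 min (30%, against 16.4% of all genes, so 10 features are too few to set apart) and 0 lower (edgeR; 0 also at an unadjusted p under 0.05 and 0 by DESeq2), with sums of 538, 599 and 653 CPM in N, against 236, 408 and 403 CPM in noN. At 15 min 4 of the 10 were lower (40%, against 12.5% of all genes tested), and 0 were higher in edgeR, at an unadjusted p under 0.05 and by DESeq2. Their median log2 fold change was -1.32 at 15 min and 0.70 at 20 min, opposite in sign. For 15 min, too, 10 features are few.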

How the data were processed

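Read counts per feature, whole numbers as deposited, were made by the authors with featureCounts on the sense strand against AGPv4 release 37, per the file headers; the submitters' processing notes list featureCounts 2.0.1, STAR 2.7.6a, UMI-tools 1.1.1 and fastp 0.21.0. The deposited quantile normalized table holds a score rounded to whole numbers, and the deposited network a score per pair. The aligner's settings are not given in the sources used here. Of 46335 features, 18872 passed filterByExpr (minimum count 10, total 15) over the 19 groups, with 99.7% of the counts. One edgeR 4.0.16 quasi-likelihood model (R 4.3.3, TMM scaling, 58 libraries, 39 residual degrees of freedom) gave all fold changes; p-values were adjusted by Benjamini-Hochberg over all genes and called at 0.05. The model was tested on simulated data. The late effect is the mean of 60, 90 and 120 min. Each SE is the size of the log2 difference divided by the square root of the test's F value. It is therefore unreliable for differences near 0. For courses over time, 3 was the prior count added before log2 CPM was taken. Replicates are separate pools of 3 seedlings by the labels. Counts between replicates differed beyond sampling noise, so each was counted as its own sample. Alternatives used DESeq2 1.42.0 and limma 3.58.1 (log2 of the score plus 1). IDs named are the 2 most raised and the 2 most lowered of those called, with a mean of at least 5 CPM and no overlap of the groups; genes with reads shared between near-identical copies cannot be singled out here. Comparisons with 5 min, and single times other than 15 and 30 min, were chosen only once the libraries had been looked at. The comparison, the gene lists and the classes were chosen with earlier results of these data known.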

Additional observations from a re-analysis of the deposited data

Results flagged for a closer look

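The N effect at 20 min differed from the effect at another stage by a test of the difference itself in the following counts, by edgeR's quasi-likelihood test at an adjusted p of 0.05. Against 15 min it differed for 28 genes, 23 with the higher value at 20 min and 5 with the lower. Against 30 min it differed for 3 genes, all with the lower value at 20 min. Against the mean of 60, 90 and 120 min it differed for 6636 genes, 3591 with the higher value at 20 min and 3045 with the lower. Of the 4 IDs named, Zm00001d041571 differed between 20 min and the late mean, with a log2 difference of 5.44 (SE 0.66, edgeR, adjusted p = 2.908e-08). The ID was chosen for its 20 min effect, among genes whose groups did not overlap then. Its 20 min value in this difference is thus a selected one.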

How the results depend on the processing

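With the 6 libraries alone, 3788 genes were called at 20 min (2282 higher, 1506 lower, 759 lower by at least 1), and with a replicate block added 3146 (1911 higher, 1235 lower, 737 lower by at least 1). Same-numbered N and noN libraries did not deviate together (r = 0.05, -0.04 and -0.08), so the numbers were not taken to pair the samples; a replicate block in the model of 58 libraries gave 5842 calls at 20 min and 70 for the difference between 20 and 15 min. That difference gave 113 genes with DESeq2, 84 with limma, 55 with no filter on low counts and 79 with the length trend removed and a replicate block, and the difference between 20 and 30 min gave 10 with DESeq2. The other settings gave 5001 to 5842 calls at 20 min. With limma on the quantile normalized table, which holds 18616 genes and 57 libraries, lower calls (2669) outnumbered higher ones (2611). Leaving out 1 of the 6 libraries gave 3653 to 5465 calls at 20 min (2183 to 2993 higher, 1470 to 2520 lower, 966 to 1478 higher by at least 1, 733 to 1387 lower by at least 1), 3 to 146 for 20 against 15 min, 1 to 4 for 20 against 30 min, 5182 to 6231 for 20 min against the late mean, 1361 to 2361 for N against time 0 and 168 to 765 for noN against time 0. Against the late mean, limma likewise gave more genes with the lower value at 20 min (3241) than with the higher (2967). With the length trend removed, 1194 genes were lower by at least 1 at 20 min and 1169 higher. With limma, 3 genes called higher at 20 min were called lower. The same held for 4 of those with a higher effect at 20 min than in the late mean. The cause of the moves was not tested. Zm00001d048593 lost its call with the 6 libraries alone (adjusted p = 0.09236, edgeR), with limma (0.1072) and without N replicate 3 (0.05871); with noN replicate 1 left out both fallen IDs lost it. Of the class counts, ENSRNA features called higher were 40 to 43 with the 6 libraries alone, and single-exon gene models called higher were 235 without N replicate 3.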
